A study of Mus musculus with 6 samples.

Results

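The genes of the proteasome were examined in hearts of 10-day-old mice. They were the protein-coding rows of the gene table whose symbol matches Psm, a letter from a to g, and a digit: 51 genes of 22186 protein-coding genes and 46452 genes in all. Messenger RNA of heart tissue was sequenced in 6 libraries, 3 labelled Nat10flox/flox (loxP-flanked alleles of Nat10, an RNA acetyltransferase gene; "flox/flox" below) and 3 labelled Nat10-CKO (a conditional knockout; "labelled CKO" below). The title of the series places the comparison in the study of NAT10 in heart development. The labels give 3 independent biological replicates per group and no treatment. No source used here gives the Cre driver, the deleted exons, the strain or whether hearts were pooled, and it is therefore not known in which cells of the heart the gene was meant to be lost.

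Levels are in FPKM (sequenced fragments per kilobase of gene, corrected for library size), and triplets of values follow replicates 1, 2 and 3. Nat10 itself was 3.75, 4.18 and 4.71 FPKM in the flox/flox libraries and 8.28, 8.66 and 10.2 FPKM in those labelled CKO. The target gene was thus higher, not lower, in the libraries labelled CKO, whole-gene values cannot show a loss of single exons, and every direction below refers to the labels. Gene-assigned reads numbered 31155521 to 38051266 per library, and the tested proteasome genes had 163 to 12384 reads per library. All 8 cardiomyocyte markers were expressed, at summed levels of 14823, 15782 and 17041 FPKM in the flox/flox libraries and 11485, 15422 and 18582 FPKM in those labelled CKO. Of these, Tnni3 was lower (1549, 1660.4 and 1769.6 against 398, 580.3 and 697 FPKM, adjusted p = 0.00211 by limma), Myl2 and Ryr2 lay below every flox/flox library without passing, and 0 were higher. Markers of ganglion neurons summed to 194 FPKM in flox/flox replicate 1 and to at most 3.95 FPKM elsewhere. The 5 erythroid markers were all lower in the libraries labelled CKO, 4 of them not in every fit that left out 1 library, and of the 6 fibroblast markers 0 passed. Flox/flox replicate 1 and CKO replicate 1 correlated least with the other libraries of their groups. Mitochondrially encoded genes took 16.6% to 18.3% of reads in the flox/flox libraries and 7.56% to 9.26% in those labelled CKO, and counts are therefore also given with these genes left out. In that fit every library was also rescaled to the same total FPKM of its other genes. This replaced the deposited scaling, so a change of call there can come from the scaling.

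The proteasome degrades proteins marked with ubiquitin. Its barrel, the core particle, has outer rings of alpha subunits that form the gate and inner rings of beta subunits, of which Psmb5, Psmb6 and Psmb7 carry the catalytic sites. A regulatory particle on the end of the barrel binds ubiquitin, removes it, and uses a ring of ATPases to unfold the substrate and push it through the gate. Other caps (the activators encoded by Psme genes) open the gate without ATP, and interferon-inducible beta subunits (Psmb8, Psmb9 and Psmb10) replace the catalytic ones in the immunoproteasome, which makes peptides for MHC class I. In heart muscle the proteasome takes part in the turnover of sarcomere proteins.

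In the libraries labelled CKO all 17 regulatory particle genes with a Psm symbol were higher, and 6 of the 14 constitutive core genes were higher. Of the 5 interferon-inducible genes (Psmb8, Psmb9, Psmb10, Psme1 and Psme2), Psmb9 and Psme1 were lower and 3 did not pass. The call of Psmb9 was lost without flox/flox replicate 2 or 3, or without CKO replicate 1 or 3. Of the 51 genes, 48 had a mean of at least 1 FPKM and were tested. At a limma adjusted p under 0.05 (Benjamini-Hochberg over all genes tested), 33 of them were called, 29 (60.4%) higher and 4 lower in the libraries labelled CKO. Of the 11996 genes tested, 40.5% were called, 24.4% higher and 16.0% lower. The groups did not overlap for 37 members, 30 of them above and 7 below the flox/flox libraries, where 55.9% of all genes tested did not overlap, 31.5% above and 24.4% below. The median log2 fold change was 0.47 over the tested members and 0.03 over all genes tested. After leaving out mitochondrially encoded genes and rescaling, 20 members were higher and 8 lower. Without both libraries that correlate least, 28 were higher and 4 lower. The count of lower members was 1 without flox/flox replicate 2 and 2 without CKO replicate 1.

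**Figure D1:**
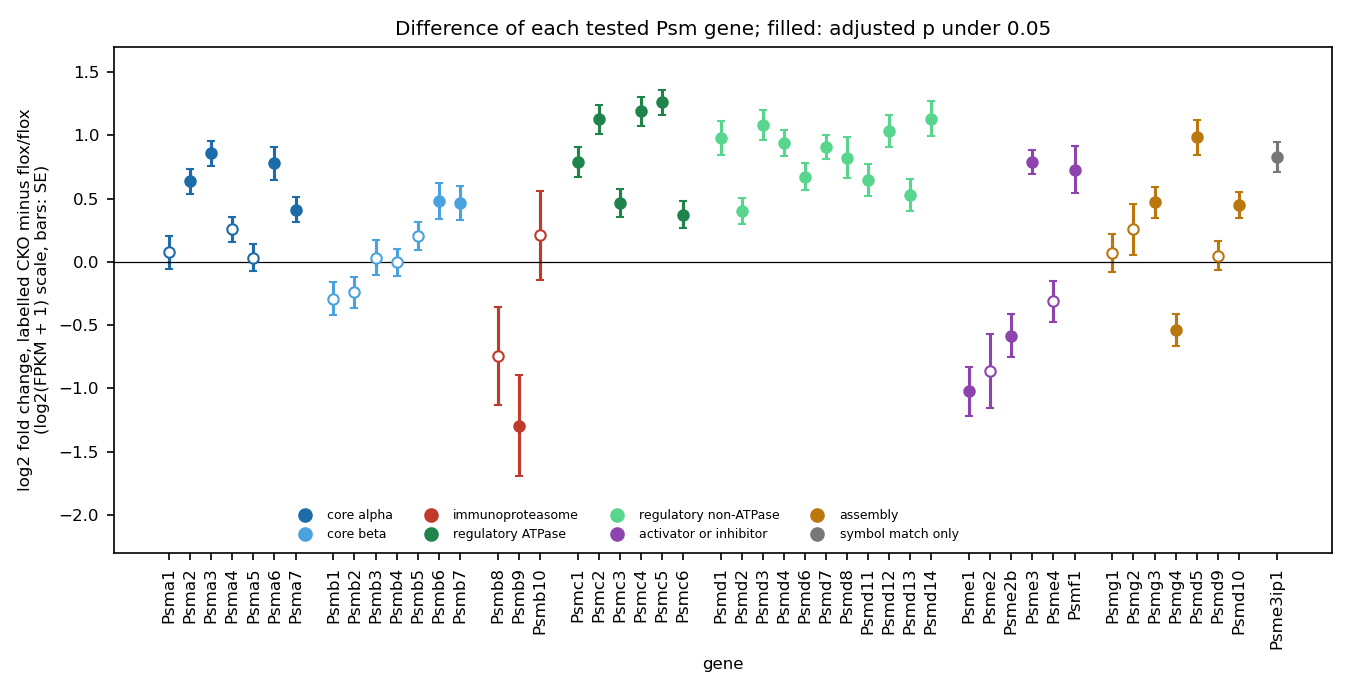
Log2 fold change (libraries labelled CKO minus flox/flox, on the log2(FPKM + 1) scale) of each of the 48 tested genes by class, with bars for the standard error and filled points for an adjusted p under 0.05. The 17 regulatory particle genes with a Psm symbol lie above 0 and are filled, the 14 constitutive core genes spread on both sides of 0, and Psmb9 and Psme1 are the lowest.

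All 6 ATPase genes of the regulatory particle rose, by 1.30-fold to 2.42-fold. Psmc5 (gene ID 19184, chromosome 11, 106147011 to 106153938, plus strand, GRCm39) changed most: it was 67.4, 64.2 and 63.9 FPKM in the flox/flox libraries and 161, 154 and 159 FPKM in those labelled CKO, or a rise of group means from 65.2 ± 1.90 to 158 ± 3.48 FPKM (SD, n = 3 each; log2 difference 1.26 ± 0.10 SE, limma adjusted p = 0.000377). Psmc4, which pairs with it when the ring is assembled, was 43.9, 41.7 and 48.8 FPKM in the flox/flox libraries and 111, 102 and 97.3 FPKM in those labelled CKO (2.31-fold). Psmc2 was 50.6, 51.6 and 55.9 FPKM in the flox/flox libraries and 121, 105 and 123 FPKM in those labelled CKO (2.21-fold). In these genes the lowest library labelled CKO lay far above the highest flox/flox library. Psmc1, whose tail helps to open the gate, was 79.0, 75.1 and 73.0 FPKM in the flox/flox libraries and 148, 120.2 and 128 FPKM in those labelled CKO (1.75-fold). Psmc3, the most abundant regulatory gene per length in the flox/flox libraries, was 95.2, 106 and 102 FPKM in the flox/flox libraries and 149.6, 132 and 138 FPKM in those labelled CKO (1.39-fold), and Psmc6 was 33.4, 38.2 and 37.0 FPKM in the flox/flox libraries and 45.0, 50.2 and 46.3 FPKM in those labelled CKO (1.30-fold). These were the smallest rises of the ring, with adjusted p of 0.0164 and 0.0305, and both missed the threshold when any one flox/flox library was left out (0.0513 to 0.0586 for Psmc3, 0.0692 to 0.0943 for Psmc6, all by limma). Psmc6 also missed it without CKO replicate 2 (0.102) or 3 (0.0587).

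The 11 other regulatory particle genes with a Psm symbol rose as well, by 1.33-fold to 2.25-fold, with limma adjusted p of 0.000841 to 0.0192. Psmd14 (gene ID 59029, chromosome 2, 61542038 to 61630720, plus strand), the metalloprotease that cuts ubiquitin chains off the substrate, was 25.5, 25.7 and 28.2 FPKM in the flox/flox libraries and 69.9, 57.4 and 51.4 FPKM in those labelled CKO (2.25-fold, log2 fold change 1.13 ± 0.14 SE). Psmd7, the partner with which it forms a dimer, was 59.5, 56.2 and 57.7 FPKM in the flox/flox libraries and 108, 109 and 110.3 FPKM in those labelled CKO (1.89-fold), with a small spread in both groups. Psmd4, a ubiquitin receptor, was 65.2, 63.7 and 64.8 FPKM in the flox/flox libraries and 131, 118 and 126 FPKM in those labelled CKO (1.94-fold). The receptor and the deubiquitinase thus both lay above every flox/flox library in all 3 libraries labelled CKO. The large scaffold subunit Psmd1 was 39.2, 39.7 and 43.6 FPKM in the flox/flox libraries and 96.5, 72.4 and 77.3 FPKM in those labelled CKO (2.01-fold). The other scaffold, Psmd2, which docks shuttle factors, was 71.0, 75.5 and 76.8 FPKM in the flox/flox libraries and 98.3, 96.0 and 102 FPKM in those labelled CKO. At 1.33-fold it had the smallest rise of the 11, and its call was lost without any one of the flox/flox libraries or CKO replicate 2 (adjusted p of 0.0537 to 0.0691 by limma).

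The remaining 6 Psm genes are scaffold subunits of the lid, the part that holds the deubiquitinase. Psmd3 was 62.5, 57.4 and 68.7 FPKM in the flox/flox libraries and 144, 124 and 134 FPKM in those labelled CKO (2.13-fold), and Psmd12 was 42.8, 48.7 and 52.3 FPKM in the flox/flox libraries and 103, 89.1 and 105 FPKM in those labelled CKO (2.07-fold). Psmd8 was 50.3, 52.2 and 51.4 FPKM in the flox/flox libraries and 116, 84.1 and 78.7 FPKM in those labelled CKO (1.81-fold), with CKO replicate 1 well above the other 2. Psmd11, which clamps the lid to the core particle, was 24.0, 24.6 and 26.4 FPKM in the flox/flox libraries and 46.7, 36.4 and 37.0 FPKM in those labelled CKO (1.60-fold). Each of these 4 genes lay above every flox/flox library in all 3 libraries labelled CKO. Psmd6 was 41.0, 45.3 and 42.2 FPKM in the flox/flox libraries and 63.4, 72.8 and 70.6 FPKM in those labelled CKO (1.61-fold). Psmd13 was 37.5, 41.9 and 42.1 FPKM in the flox/flox libraries and 67.2, 54.4 and 55.8 FPKM in those labelled CKO (1.46-fold), and its call was lost without flox/flox replicate 1 (adjusted p = 0.0504 by limma).

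The groups did not overlap for any of the 17 regulatory genes, where 31.5% of all genes tested lay above without overlap. The log2 differences of the 17 had a median of 0.91. The difference was positive for all 17 under each of the 19 alternative fits. The number called was 12 under quantile normalization and 13 when mitochondrially encoded genes were left out, and 13, 14 and 14 without flox/flox replicate 1, 2 and 3. Over all genes tested, 2514 of 11996 were higher under quantile normalization and 2353 of 12004 with mitochondrially encoded genes left out. Without flox/flox replicate 1, 2 and 3 these were 2409 of 11824, 2120 of 11967 and 2265 of 11986. Psmc3, Psmc6, Psmd2 and Psmd13 were lost both under quantile normalization and with mitochondrially encoded genes left out, and Psmd11 under the former. Within the libraries labelled CKO, 11 of the 17 were highest in replicate 1.

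Of the 14 constitutive core genes, 6 (42.9%) rose and 8 did not pass, where 24.4% of all genes tested were higher. Their median log2 difference was 0.23. In the alpha rings, Psma3 was 16.3, 16.7 and 14.4 FPKM in the flox/flox libraries and 29.6, 29.1 and 29.6 FPKM in those labelled CKO (1.86-fold, log2 difference 0.86, SE 0.10, adjusted p = 0.00106 by limma). Its level per length is the lowest of the core, at a length of 3325 bases in the deposited table, and the fold between groups does not depend on that length. It overlaps a long noncoding gene on the opposite strand at a mean of 2.37 and 2.28 FPKM. Psma6 was 82.4, 86.2 and 90.1 FPKM in the flox/flox libraries and 171, 132 and 145 FPKM in those labelled CKO (1.73-fold). Psma2 was 60.9, 55.6 and 59.2 FPKM in the flox/flox libraries and 93.8, 90.1 and 90.9 FPKM in those labelled CKO (1.56-fold), and Psma7 was 50.9, 51.4 and 47.8 FPKM in the flox/flox libraries and 68.9, 65.0 and 66.9 FPKM in those labelled CKO (1.34-fold). These 4 genes were above every flox/flox library in all libraries labelled CKO. The call of Psma7 was lost without flox/flox replicate 2 (adjusted p = 0.0546 by limma) or 3 (0.0646), under quantile normalization (0.260) and with mitochondrially encoded genes left out (0.074). The other 3 alpha genes did not pass: Psma4 was 52.4, 57.3 and 54.8 against 63.2, 66.1 and 68.1 FPKM with no overlap (adjusted p = 0.0803 by limma), while Psma1 (61.6, 67.2 and 68.8 against 60.4, 71.0 and 78.0 FPKM) and Psma5 (34.8, 35.9 and 31.4 against 34.9, 37.2 and 32.4 FPKM) overlapped between groups.

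Of the catalytic genes, Psmb7, which carries the trypsin-like site, was 115, 117 and 121 FPKM in the flox/flox libraries and 183, 141 and 169 FPKM in those labelled CKO (1.39-fold, log2 difference 0.47, SE 0.13, adjusted p = 0.0304 by limma). Psmb6, with the caspase-like site, was 76.7, 79.8 and 84.8 FPKM in the flox/flox libraries and 131, 95.4 and 114 FPKM in those labelled CKO (1.41-fold, adjusted p = 0.0359). Psmb5, with the chymotrypsin-like site, was 55.9, 53.6 and 64.4 FPKM in the flox/flox libraries and 64.2, 67.6 and 68.6 FPKM in those labelled CKO, which overlapped and did not pass (log2 difference 0.21, SE 0.11, adjusted p = 0.190 by limma). The calls of Psmb6 and Psmb7 were lost without any one flox/flox library, without CKO replicate 3 and without both libraries that correlate least (adjusted p of 0.0704 to 0.105 by limma). Both were also lost under quantile normalization (0.136 and 0.0793) and with mitochondrially encoded genes left out (0.113 and 0.102). The same held with scaling by total reads (0.0599 and 0.0520) and with no filter on mean FPKM (0.0653 and 0.0538). Psmb4 and Psmb3, structural subunits, were 122, 116 and 130.0 against 125, 120.1 and 122 FPKM and 68.2, 72.7 and 85.9 against 86.4, 76.5 and 69.3 FPKM. Psmb1 (82.8, 84.6 and 81.4 against 58.8, 77.8 and 67.7 FPKM) and Psmb2 (58.4, 70.4 and 60.6 against 48.7, 54.7 and 56.5 FPKM) were below every flox/flox library in all libraries labelled CKO without passing (adjusted p of 0.119 and 0.160 by limma). Both were called lower once mitochondrially encoded genes were left out and the libraries rescaled (0.0316 and 0.0436), and 3 core genes were then called higher. The number of core genes called higher was also 3 without flox/flox replicate 2 and 3 without flox/flox replicate 3.

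**Figure D2:**
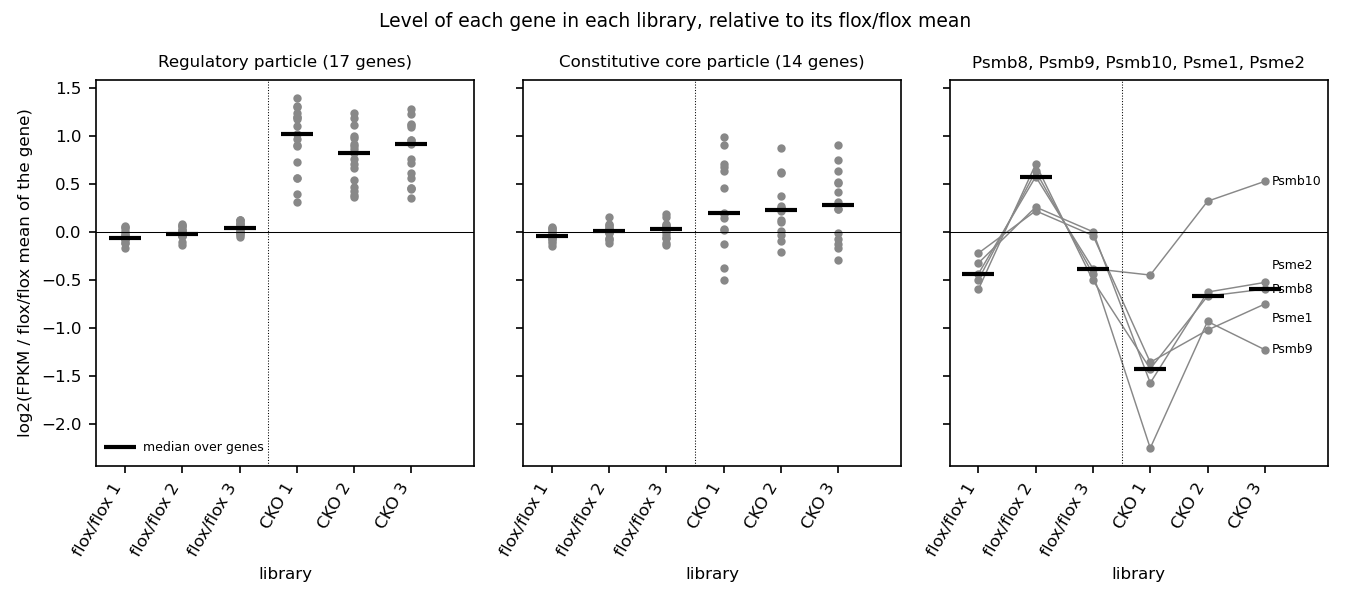
Log2 ratio of each gene's FPKM to its flox/flox mean in each of the 6 libraries, with points for genes, black bars for the median over genes and lines joining the genes of the right panel. The regulatory genes are above 0 in all 3 libraries labelled CKO, the core genes lie on both sides of 0 there, and the 5 interferon-inducible genes are highest in flox/flox replicate 2 and lowest in CKO replicate 1.

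A ratio within a library does not depend on how libraries are scaled. The median FPKM of the 17 regulatory genes over the median of the 14 core genes was 0.822, 0.750 and 0.785 in the flox/flox libraries and 1.62, 1.30 and 1.48 in those labelled CKO. The groups did not overlap, and the log2 difference was 0.90 (two-sided exact permutation test p = 0.1, the smallest that 3 against 3 libraries allow; 0.14 after Benjamini-Hochberg adjustment over the 7 ratios computed). With means in place of medians the log2 difference was 0.59. The highest subunit gene exceeded the lowest 7.002-fold to 9.02-fold among core genes in the flox/flox libraries and 4.84-fold to 6.17-fold in those labelled CKO, with Psma3 lowest in all 6. Among regulatory genes this range was 3.87-fold to 4.30-fold and 3.58-fold to 4.28-fold. The median regulatory gene lay between 50.3 and 52.3 FPKM in the flox/flox libraries and between 96.0 and 108 FPKM in those labelled CKO. The median core gene lay between 61.2 and 68.8 FPKM and between 66.6 and 73.7 FPKM, which overlap. The summed core FPKM did not overlap, at 939, 965 and 995 in the flox/flox libraries and 1219, 1123 and 1179 in those labelled CKO (1.21-fold). The summed regulatory FPKM rose 1.83-fold.

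**Figure D3:**
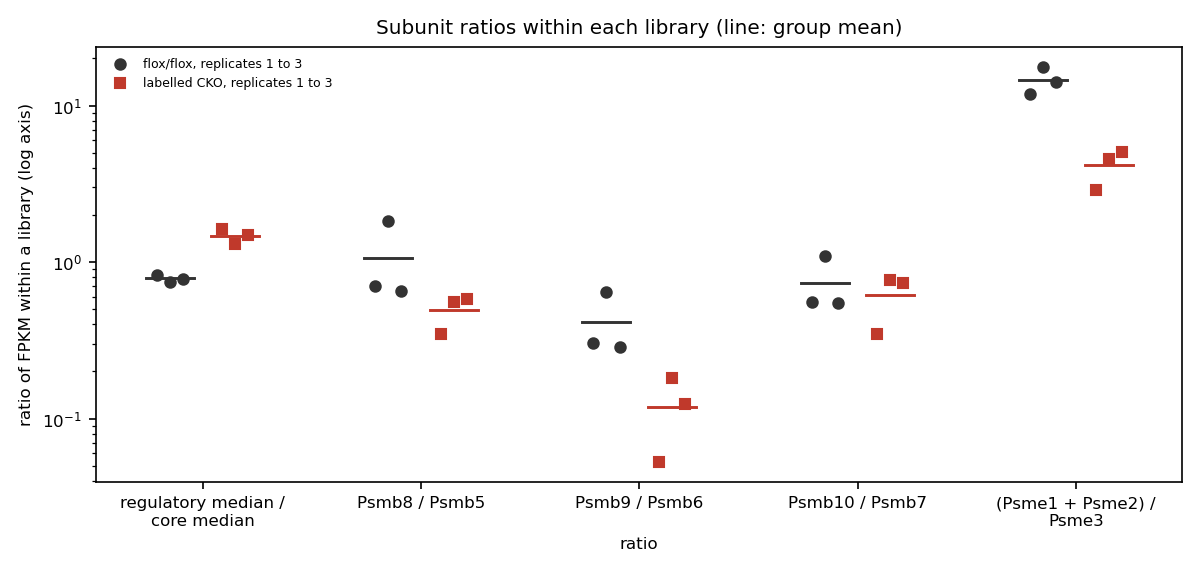
Ratios of FPKM within each library (log axis), with points for replicates 1 to 3 from left to right and a line for the group mean. The regulatory to core ratio is higher in all libraries labelled CKO, the ratios of Psmb8 to Psmb5, Psmb9 to Psmb6 and Psme1 plus Psme2 to Psme3 are lower, and the ratio of Psmb10 to Psmb7 overlaps between groups.

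Of the 3 immunoproteasome genes, 1 fell and 2 did not pass, where 16.0% of all genes tested were lower. Psmb9 (gene ID 16912, chromosome 17, 34400961 to 34406304, minus strand), which takes the place of Psmb6, was 23.4, 51.3 and 24.4 FPKM in the flox/flox libraries and 6.94, 17.3 and 14.1 FPKM in those labelled CKO. It fell 2.58-fold (log2 difference -1.29 ± 0.40 SE, limma adjusted p = 0.0414). Its call was lost without flox/flox replicate 2 (0.105) or 3 (0.0665), without CKO replicate 1 (0.078) or 3 (0.0697), and with no filter on mean FPKM (0.108). Psmb8 (gene ID 16913, chromosome 17, 34417169 to 34420428, plus strand), which replaces Psmb5 and lies near Psmb9 in the MHC region, was 39.5, 97.6 and 42.1 FPKM in the flox/flox libraries and 22.3, 37.6 and 39.6 FPKM in those labelled CKO. The groups overlapped at CKO replicate 3 and flox/flox replicate 1, and it did not pass (log2 difference -0.75, SE 0.39, adjusted p = 0.166 by limma). Without flox/flox replicate 2 the log2 difference was -0.33. Psmb10 (gene ID 19171, chromosome 8, 106662360 to 106665024, minus strand), which replaces Psmb7, was 63.6, 128 and 66.0 FPKM in the flox/flox libraries and 63.0, 107 and 124 FPKM in those labelled CKO and did not pass either (log2 difference 0.21, SE 0.35, adjusted p = 0.656 by limma). Each of the 3 genes was highest in flox/flox replicate 2 and lowest in CKO replicate 1.

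Set against the subunit it replaces, Psmb9 was 0.306, 0.643 and 0.288 in the flox/flox libraries and 0.0528, 0.182 and 0.124 in those labelled CKO, a log2 difference of -1.86 with no overlap. The ratio of Psmb8 to Psmb5 was 0.706, 1.82 and 0.654 in the flox/flox libraries and 0.347, 0.556 and 0.577 in those labelled CKO, also without overlap (log2 difference -0.97, but -0.50 without flox/flox replicate 2). Both had an exact permutation p of 0.1 (0.14 adjusted over the 7 ratios). The ratio of Psmb10 to Psmb7 was 0.552, 1.09 and 0.545 in the flox/flox libraries and 0.345, 0.763 and 0.735 in those labelled CKO and overlapped (log2 difference -0.26, exact permutation p = 0.6, also 0.6 adjusted), and the difference was above 0 without flox/flox replicate 2 (0.077) or CKO replicate 1 (0.12). The summed FPKM of the 3 immunoproteasome genes over that of the 3 constitutive catalytic genes was 0.511, 1.11 and 0.490 in the flox/flox libraries and 0.244, 0.534 and 0.505 in those labelled CKO (log2 difference -0.69, exact permutation p = 0.5, 0.583 adjusted). That difference was -0.31 without flox/flox replicate 2 and -0.33 without CKO replicate 1.

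Psme1 and Psme2 encode the interferon-inducible cap that joins the immunoproteasome. Psme1 (gene ID 19186, chromosome 14, 55815951 to 55818984, plus strand) was 159, 215 and 180.2 FPKM in the flox/flox libraries and 72.1, 91.0 and 109.9 FPKM in those labelled CKO, so that its mean fell 2.03-fold, from 185 ± 28.6 to 91.0 ± 18.9 FPKM (SD, n = 3 each; limma adjusted p = 0.00678). It overlaps the gene Emc9 on the opposite strand, which had a mean of 22.7 and 18.5 FPKM, so part of its reads may be uncertain. Psme2 was 39.9, 59.7 and 49.99 FPKM in the flox/flox libraries and 16.8, 32.3 and 34.7 FPKM in those labelled CKO. The groups did not overlap, but it missed the threshold (log2 difference -0.86, SE 0.29, adjusted p = 0.0543 by limma); among the alternatives it passed in 9, with adjusted p down to 0.0091. Psme2b, a copy of Psme2 whose reads may be shared with it, was 31.3, 30.4 and 22.2 FPKM in the flox/flox libraries and 15.6, 18.4 and 20.7 FPKM in those labelled CKO (adjusted p = 0.0332 by limma, lost without flox/flox replicate 1 or 2 or CKO replicate 1 or 2).

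Of the other caps and the inhibitor, Psme3 and Psmf1 rose and Psme4 did not pass. Psme3 (gene ID 19192, chromosome 11, 101206090 to 101214363, plus strand), the cap found in the nucleus, was 16.8, 15.6 and 16.4 FPKM in the flox/flox libraries and 30.7, 27.1 and 28.8 FPKM in those labelled CKO, a rise of 1.78-fold (log2 difference 0.79, SE 0.10, adjusted p = 0.00133 by limma). The summed FPKM of Psme1 and Psme2 over that of Psme3 was 11.8, 17.7 and 14.1 in the flox/flox libraries and 2.89, 4.55 and 5.02 in those labelled CKO, without overlap (exact permutation p = 0.1, 0.14 adjusted over the 7 ratios). The mean of Psme1 and Psme2 over the core median was 1.62, 2.00 and 1.73 in the flox/flox libraries and 0.668, 0.837 and 1.05 in those labelled CKO (exact permutation p = 0.1, 0.14 adjusted). Psme4, a large single-chain cap, was 31.5, 37.9 and 34.6 FPKM in the flox/flox libraries and 23.0, 27.3 and 33.6 FPKM in those labelled CKO, which overlapped and did not pass (adjusted p = 0.159 by limma). It was called lower with array weights (0.0196), under quantile normalization (0.0250) and with mitochondrially encoded genes left out (0.0432). Psmf1, known as an inhibitor of the core particle in vitro, was 6.66, 6.09 and 6.53 FPKM in the flox/flox libraries and 14.8, 8.50 and 11.4 FPKM in those labelled CKO and rose 1.80-fold (adjusted p = 0.0203 by limma). Its call was lost without flox/flox replicate 2 (0.0695) or 3 (0.0596) or CKO replicate 3 (0.0523). The call was also lost with no filter on mean FPKM (0.0554) and with mitochondrially encoded genes left out (0.0519).

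Genes of class I presentation and of several cell types were measured beside the interferon-inducible members. Of 14 genes of class I presentation, 3 were lower (Calr, Canx and Tapbp) and 0 higher, the median log2 difference was -0.67, and 9 lay below without overlap. Over all genes tested, 16.0% were called lower and 24.4% lay below without overlap. All 3 calls were lost without flox/flox replicate 2 (adjusted p of 0.0692 to 0.163 by limma) and without flox/flox replicate 3 (0.0514 to 0.144), that of Canx without any one library, and that of Tapbp without CKO replicate 3. Tap1, a subunit of the peptide transporter next to Psmb9, was 35.2, 69.8 and 37.5 against 11.9, 31.1 and 20.3 FPKM (adjusted p = 0.0515 by limma). All 14 were highest in flox/flox replicate 2, and 12 of the 14 were lowest in CKO replicate 1, as were the 5 genes Psmb8, Psmb9, Psmb10, Psme1 and Psme2. The 6 endothelial markers were all lower, with summed levels of 315, 374 and 342 against 181, 191 and 187 FPKM, and all 6 were highest in flox/flox replicate 2. The call of Pecam1 was lost without flox/flox replicate 2 or 3 or CKO replicate 2 or 3 (adjusted p of 0.0965 to 0.136 by limma). The 10 immune cell markers summed to 599, 1152 and 612 against 631, 800.0 and 762 FPKM. Of the 8 tested, Cd74 was lower (152, 495 and 206 against 51.0, 75.5 and 84.3 FPKM) and 0 were higher. The other 7 did not pass and went in both directions. Their log2 differences were above 0 for Lyz2 (0.61), Itgam, Cd68 and Laptm5, and below 0 for Ptprc (-0.58), Adgre1 and Csf1r. The T and B cell markers Cd3e and Cd79a were under 1 FPKM on average. The part of these cell types in the levels of the interferon-inducible members was not tested. In whole hearts, fewer cells of a type and less RNA per cell cannot be told apart.

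**Figure D4:**
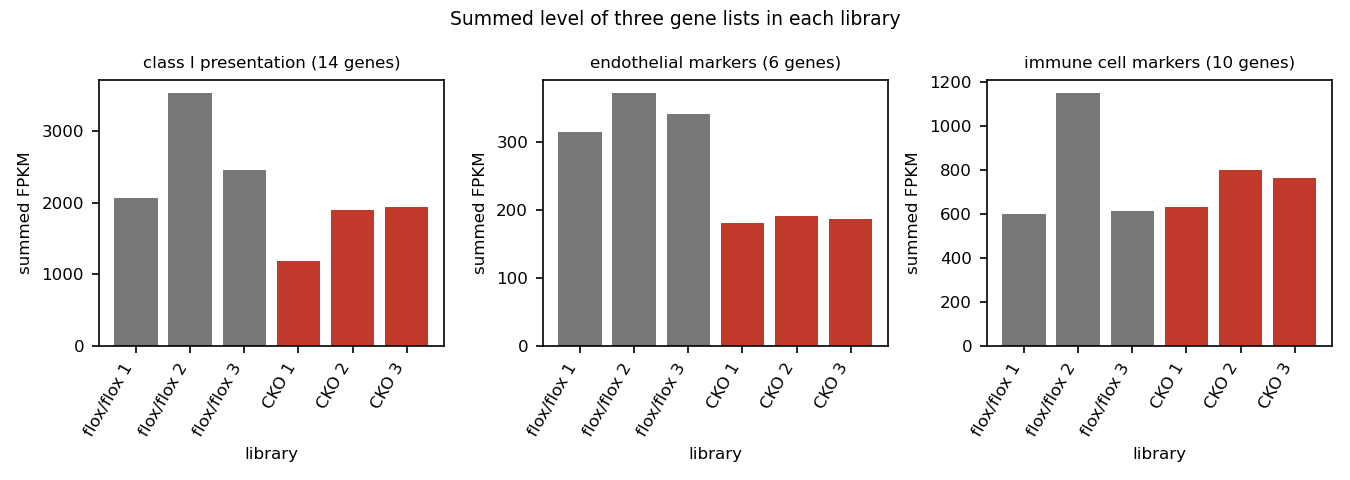
Summed FPKM of the genes of class I presentation, of endothelial markers and of immune cell markers in each library (bars, 1 per library; gray for flox/flox, red for labelled CKO). Flox/flox replicate 2 is the highest library in all 3 panels. The class I and endothelial sums are lower in all 3 libraries labelled CKO than in any flox/flox library, and the immune sum overlaps between groups.

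Of the 7 assembly genes, 3 (42.9%) rose, 1 (14.3%) fell and 3 did not pass, where 24.4% of all genes tested were higher and 16.0% lower. The share that fell was thus close to that of all genes. Psmd5, a chaperone of the ATPase ring, was 9.27, 9.20 and 7.81 FPKM in the flox/flox libraries and 21.7, 17.1 and 16.4 FPKM in those labelled CKO (2.10-fold, log2 difference 0.98, SE 0.14, adjusted p = 0.00200 by limma). Psmd10, which is known as gankyrin and also binds the ATPase ring, was 4.98, 4.49 and 4.66 FPKM in the flox/flox libraries and 7.68, 6.43 and 6.37 FPKM in those labelled CKO (1.45-fold), but it overlaps Atg4a on the opposite strand (mean of 4.07 and 5.07 FPKM). Psmd9, another chaperone of that ring, was 6.06, 6.06 and 6.86 FPKM in the flox/flox libraries and 7.54, 6.23 and 6.04 FPKM in those labelled CKO and overlapped between groups. Of these 3 chaperones 2 passed, and another chaperone of the ring, Paaf1, was not analysed here. The call of Psmd10 was lost without flox/flox replicate 2 (adjusted p = 0.0594 by limma) or 3 (0.0522), and with mitochondrially encoded genes left out (0.0669).

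The 4 Psmg genes encode chaperones of the alpha ring that work in pairs, Psmg1 with Psmg2 and Psmg3 with Psmg4. Psmg1 was 12.6, 14.9 and 13.9 FPKM in the flox/flox libraries and 11.7, 15.3 and 17.1 FPKM in those labelled CKO, and Psmg2 was 13.3, 14.9 and 16.1 FPKM in the flox/flox libraries and 12.9, 20.00 and 21.8 FPKM in those labelled CKO. Neither passed (adjusted p of 0.736 and 0.337 by limma), but Psmg2 passed without CKO replicate 1 (0.0196). Psmg3 was 6.51, 5.91 and 5.75 FPKM in the flox/flox libraries and 7.60, 10.2 and 8.72 FPKM in those labelled CKO and rose 1.46-fold (adjusted p = 0.0222), but its call was lost without flox/flox replicate 2 or 3 or CKO replicate 2 or 3 (0.0517 to 0.0772). Psmg4 was 13.6, 16.1 and 13.1 FPKM in the flox/flox libraries and 8.18, 10.3 and 9.99 FPKM in those labelled CKO and fell 1.50-fold (adjusted p = 0.0159 by limma, 0.0594 without flox/flox replicate 2). The partners Psmg3 and Psmg4 thus passed in opposite directions. Both have few reads, 163 to 309 per library for Psmg3 and 167 to 307 for Psmg4.

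The symbol rule also took in 2 genes that are not subunits. Psme3ip1, whose product binds the Psme3 cap, was 8.38, 10.2 and 9.84 FPKM in the flox/flox libraries and 15.5, 18.5 and 18.8 FPKM in those labelled CKO (1.86-fold, adjusted p = 0.00258 by limma). Psmc3ip, a recombination factor of meiosis, had a mean under 1 FPKM and was not tested, at 0.490, 0.630 and 0.822 against 0.735, 0.646 and 1.18 FPKM. Psma8, the alpha subunit of testis, was at 0.120, 0.407 and 0.0999 against 0.229, 0.320 and 0.261 FPKM, from 8 to 29 reads per library. Psmb11, the catalytic subunit of the thymus, had 0 reads in all 6 libraries, which allows up to 3 reads per library (counting error only).

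Promoter sequences of the members were also searched for short motifs. RefSeq windows (GRCm38.p6, 250 bases before to 50 after each start) were found for 43 of the 51 genes. The motifs were TGACNNNGC, the core of the antioxidant response element that NFE2L1 and NFE2L2 are known to bind, CCAAT, and the core of the interferon stimulated response element (GAAA, any 2 bases, GAAA), each on both strands. TGACNNNGC was found in 6 of 43 members (13.95%) and in 13.99% of the 27025 genes with a window, and in 2 of 14 regulatory genes. The share in the members was thus close to that of all genes. CCAAT was found in 4 of 14 regulatory genes and 6 of 11 core genes, against 41.1% of all genes. The interferon motif was found in 5 members (11.6%) and in 3.99% of all genes, none of them Psmb8, Psmb9 or Psmb10. The windows of 3 genes are shown, each for a gene named above and with the matches in capitals. Psmd14, the regulatory gene that removes ubiquitin, has CCAAT matches, of which the last is read on both strands (CCAATTGG). Psmb6, a catalytic gene that rose, has TGACNNNGC just before its start. TGACNNNGC is also in Psmc6 and Psmd12, which rose, and in Psmb5, Psmd9 and Psme4, which did not pass. Psme1, which fell, has the interferon motif on the minus strand just after its start. That motif is also in Psmg4, which fell, in Psmd4, which rose, and in Psmb3 and Psmd9, which did not pass. Members with either motif thus did not share a direction. A match is a description of letters and not a bound site.
Psmd14, chr2:61711444-61711743, plus strand: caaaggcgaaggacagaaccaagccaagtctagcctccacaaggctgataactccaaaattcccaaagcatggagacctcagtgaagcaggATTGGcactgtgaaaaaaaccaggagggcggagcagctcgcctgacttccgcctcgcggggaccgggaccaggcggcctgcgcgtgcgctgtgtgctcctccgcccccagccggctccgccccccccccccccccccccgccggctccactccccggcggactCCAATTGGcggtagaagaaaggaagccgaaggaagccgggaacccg
Psmb6, chr11:70525107-70525406, plus strand: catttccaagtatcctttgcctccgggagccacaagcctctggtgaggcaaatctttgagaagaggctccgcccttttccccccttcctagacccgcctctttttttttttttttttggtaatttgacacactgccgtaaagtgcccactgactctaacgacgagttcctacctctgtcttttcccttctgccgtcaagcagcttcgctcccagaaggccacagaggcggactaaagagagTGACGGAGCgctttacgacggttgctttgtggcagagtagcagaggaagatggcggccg
Psme1, chr14:55578244-55578543, plus strand: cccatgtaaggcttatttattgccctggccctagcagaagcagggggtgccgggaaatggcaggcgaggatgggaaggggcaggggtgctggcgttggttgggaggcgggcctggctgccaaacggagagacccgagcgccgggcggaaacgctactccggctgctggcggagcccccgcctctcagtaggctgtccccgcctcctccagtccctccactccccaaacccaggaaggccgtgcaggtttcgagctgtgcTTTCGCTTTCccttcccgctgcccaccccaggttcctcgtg

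Partners of the proteasome without a Psm symbol rose in part. Of 15 measured on a list of 16, 7 rose and 0 fell, where 24.4% of all genes tested were higher and 16.0% lower, and the median log2 difference was 0.47. Adrm1, the ubiquitin receptor held by Psmd1, was 50.4, 50.2 and 55.3 FPKM in the flox/flox libraries and 124, 100.5 and 107 FPKM in those labelled CKO (2.13-fold, log2 difference 1.07, SE 0.12, adjusted p = 0.00105 by limma). Sem1, the smallest subunit of the lid, was 89.3, 81.6 and 84.1 against 63.5, 92.5 and 81.7 FPKM and overlapped. Pomp, the maturation factor of the core particle, was 56.8, 66.8 and 49.5 against 45.5, 49.5 and 55.7 FPKM and did not pass either. One receptor that sits on the regulatory scaffold thus rose with it, while these 2 did not pass. Akirin2, which takes proteasomes into the nucleus, rose 2.37-fold (27.2, 23.4 and 25.5 against 62.1, 54.9 and 63.5 FPKM), and the importin gene Ipo9 rose 1.58-fold. Of the deubiquitinases that bind the regulatory particle, Uchl5 rose 1.57-fold, and Usp14 was 12.9, 11.8 and 10.6 against 14.1, 14.7 and 17.3 FPKM and missed the threshold (adjusted p = 0.0507 by limma). Zfand2a, a stress-induced partner of the regulatory particle, rose 2.33-fold.

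Nfe2l1 encodes the transcription factor known to raise proteasome genes when proteasome activity falls, a step controlled by processing of the protein. Its messenger was 98.9, 92.9 and 105 FPKM in the flox/flox libraries and 84.1, 112 and 107 FPKM in those labelled CKO, which overlapped (log2 difference 0.02, SE 0.14, adjusted p = 0.923 by limma). A list of 14 regulators of proteasome gene transcription holds Nfe2l1, Nfe2l2 and its inhibitor Keap1, genes of NFE2L1 processing, small Maf partners and subunits of the CCAAT-binding factor. Of these, 8 rose and 0 fell, where 24.4% of all genes tested were higher and 16.0% lower, and the median log2 difference was 0.41. Ddi2, the protease that cleaves NFE2L1, was 1.96, 1.62 and 2.04 against 5.16, 3.59 and 3.73 FPKM (2.22-fold), and Ngly1, which removes its sugars, was 9.74, 10.7 and 12.7 against 13.2, 16.5 and 16.9 FPKM (1.41-fold). Sel1l and Syvn1, on the same list, did not pass (1.01-fold and 0.85-fold, adjusted p of 0.949 and 0.224 by limma). The small Maf partner genes Maff and Mafk rose 3.86-fold and 3.16-fold, and Mafg did not pass (1.18-fold). The related factor Nfe2l2 was 17.0, 19.3 and 19.3 against 29.2, 23.3 and 24.8 FPKM (1.39-fold, adjusted p = 0.0244 by limma). Keap1, the inhibitor of NFE2L2, rose as well, at 17.2, 18.0 and 18.4 against 28.8, 25.5 and 28.5 FPKM (1.54-fold, adjusted p = 0.00397 by limma). The call of Nfe2l2 was lost without any one flox/flox library (0.0599 to 0.0757), and that of Ngly1 without flox/flox replicate 1 or 2 or CKO replicate 2 or 3 (0.107 to 0.119).

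Genes of ubiquitin and of the factors that bring substrates to the proteasome were higher for 10 of 19 and lower for 1, against 24.4% and 16.0% of all genes tested. Vcp and Ddi2 are on this list and on that of transcription regulators. Uba1, the main ubiquitin-activating enzyme, was 57.9, 58.9 and 59.3 FPKM in the flox/flox libraries and 113, 96.1 and 101 FPKM in those labelled CKO (1.76-fold, log2 difference 0.81, SE 0.11, adjusted p = 0.00189 by limma). The polyubiquitin gene Ubb overlapped (238, 178 and 209 against 247, 206 and 185 FPKM). Of the shuttle factors, which bind both ubiquitin and the scaffold Psmd2, Rad23b rose 2.14-fold and Ubqln1 2.08-fold, and Ubqln2 did not pass. Nploc4, a cofactor of the unfoldase VCP, rose 2.43-fold, and Vcp itself 1.29-fold, though its call was lost without any one library but CKO replicate 1 (adjusted p of 0.0632 to 0.144 by limma). Ufd1, which works with Nploc4, was 17.4, 17.5 and 19.3 against 18.9, 13.5 and 12.2 FPKM and did not pass.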

How the data were processed

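The submitters' processing notes and design text name GRCm39, HISAT2 2.2.1 (alignment), featureCounts 2.0.6 (read counting) and DESeq2 1.42.0. The libraries were poly-A selected and directional, per the labels' protocols. The deposited values are FPKM per gene and library, with gene length and coordinates; the strand setting and the length definition are not given in the sources used here. In each library, 100% of the deposited values were whole multiples of what 1 read is worth (tolerance 0.01 read), so reads were recovered, 31155521 to 38051266 per library. The deposited FPKM matched reads divided by length and by median-of-ratios size factors.

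The groups' log2(FPKM + 1) values entered a limma 3.58.1 fit with an intensity trend (R 4.3.3), restricted to genes averaging at least 1 FPKM, tested two-sided at a Benjamini-Hochberg adjusted p under 0.05; this scale understates changes of low genes. On simulated data the fit recovered most changed genes, with a share of false calls above the nominal threshold. The simulation gave all genes the same relative spread beyond counting error and changed far fewer genes than were called here. It therefore cannot show how the fit performs on genes that vary much between libraries, such as Psmb8. Ratios within libraries were compared by exact permutation (SciPy 1.17.1). Every Psm gene is described; of other lists, counts, up to 3 genes by adjusted p and a few fixed genes, with others chosen after their values were seen. Some genes of these lists are counted but not reported here by name. The members and lists were chosen with earlier results of these data known. Promoter windows are from RefSeq (GRCm38.p6). All 51 genes overlap the GENCODE M39 gene of the same name. Figures were drawn with matplotlib 3.10.9.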

Additional observations from a re-analysis of the deposited data

How the results depend on the processing

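Of the 33 members called, 19 kept their direction and side of the threshold in all 19 alternative fits and 20 in every fit that left out 1 library. Leaving out 1 library gave 20 to 30 higher and 1 to 4 lower members, 13 to 17 higher regulatory genes, 3 to 6 higher core genes, and 2120 to 3104 higher and 1162 to 1951 lower genes over all. The log2 difference of the regulatory to core ratio ran from 0.82 to 0.98 and that of the immunoproteasome ratio from -0.90 to -0.31. For the other ratios this was added after seeing the data, and it ran from -1.24 to -0.50 (Psmb8 to Psmb5), -2.25 to -1.36 (Psmb9 to Psmb6), -0.46 to 0.12 (Psmb10 to Psmb7), -1.98 to -1.58 (Psme1 and Psme2 to Psme3) and -1.25 to -0.92 (to the core). Lower members numbered 2 with no filter, 7 with array weights, 8 under quantile normalization and 8 with mitochondrially encoded genes left out. Higher core genes numbered 3 under quantile normalization and 3 with mitochondrially encoded genes left out. Requiring a fitted difference of at least 1 in log2(FPKM + 1) as well left 6 higher and 2 lower members, 6 regulatory and 0 core genes, and 960 higher and 560 lower genes over all. Lower genes over all numbered 1159 at a mean of at least 5 FPKM, 3007 with array weights and 1281 with protein-coding genes rescaled; this rescaling put the median difference of all genes at 0.18 (log2). Of calls over all genes, 2353 were higher and 2483 lower with mitochondrially encoded genes left out. Voom on the recovered reads called 2933 genes higher and 1957 lower. Same-numbered libraries had residual correlations of 0.065, 0.037 and 0.11, not every library correlated best with its own number, and the labels pair none; with a replicate block, 27 members were higher and 4 lower, 2666 genes over all were higher and 1724 lower, and Psmb6, Psmb7 and Psme2b were lost while Psme2 passed.

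The log2 fold change of 7 members that did not pass changed sign. Under quantile normalization it was -0.17 for Psma1, -0.21 for Psma5, -0.17 for Psmb3, -0.041 for Psmb5, -0.12 for Psmg1 and -0.0080 for Psmd9. With mitochondrially encoded genes left out it was -0.037 for Psma1, -0.079 for Psma5, -0.080 for Psmb3, -0.039 for Psmg1 and -0.048 for Psmd9. Scaling by total reads gave -0.0060 for Psma5 and -0.0060 for Psmb3. Rescaling to protein-coding genes gave 0.15 for Psmb4. Array weights gave -0.012 for Psmd9. Leaving out both libraries that correlate least gave -0.12 for Psmb3 and -0.062 for Psmd9. Leaving out 1 library gave -0.0062 to 0.18 for Psma1, -0.022 to 0.083 for Psma5, -0.048 to 0.13 for Psmb3, -0.043 to 0.037 for Psmb4, -0.036 to 0.10 for Psmd9 and -0.041 to 0.21 for Psmg1. The cause was not tested. The planned fits with edgeR and DESeq2 on the recovered reads were not run; voom was.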

Other observations

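Ratios between immunoproteasome genes separated the groups where the levels of Psmb8 and Psmb10 overlapped. These ratios were chosen after the values were seen. Psmb10 over Psmb9 was 2.71, 2.50 and 2.70 in the flox/flox libraries and 9.07, 6.19 and 8.77 in those labelled CKO. Flox/flox replicate 2, with the highest level of both genes, had a ratio close to that of the other flox/flox libraries, and all 3 libraries labelled CKO were above 6. Psmb10 over Psmb8 was 1.61, 1.31 and 1.57 in the flox/flox libraries and 2.83, 2.85 and 3.13 in those labelled CKO, again without overlap, and Psmb9 over Psmb8 was 0.593, 0.526 and 0.580 in the flox/flox libraries and 0.312, 0.461 and 0.357 in those labelled CKO. Each of these had an exact permutation p of 0.1, the smallest possible (0.167 after Benjamini-Hochberg adjustment over the 5 ratios computed). Tap1, the neighbour of Psmb9, had overlapping ratios to Psmb9, at 1.50, 1.36 and 1.54 in the flox/flox libraries and 1.72, 1.79 and 1.44 in those labelled CKO (exact permutation p = 0.3). Psme1 over Psme2 also overlapped, at 3.98, 3.61 and 3.61 in the flox/flox libraries and 4.30, 2.82 and 3.17 in those labelled CKO (exact permutation p = 0.5).

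The pseudogene Psma5-ps, which the rule left out, was listed at 3.60, 2.60 and 4.76 against 3.72, 4.27 and 3.70 FPKM, and Psmb5-ps at 0 in all 6 libraries.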
